A study of Mus musculus with 9 samples.

Results

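The genes of glycolysis and of the transcriptional response to low oxygen were followed in the abdominal aorta of B cell-deficient mice, 37 genes out of 16508 tested. They were taken by name: each non-control array probe carrying the symbol of a listed gene was found, with Pkm listed as Pkm2 and Ero1a as Ero1l in the files, and the probe with the brightest mean signal stood for its gene. All 37 genes were found, on 62 probes. The probe used was well above background on all 9 arrays for 37 of the 37 genes, so no member was lost to the filter on dim probes.

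The 9 samples were aortas of C57BL/6 mice of the uMT genotype, which cannot carry mature B cells, so the controls lack them as well. In sham mice the outside of the vessel received physiological saline, in the CaCl2 group it received 0.5 M CaCl2 to induce an aneurysm, and in the last group CaCl2 was combined with intraperitoneal mouse polyclonal IgG (called the IgG group). The CaCl2-treated aortas were taken on day 7. The sources used here give neither the sampling day of the sham mice nor the IgG dose, nor the animals' age and sex. Each group had 3 samples with 1 Agilent array each. The labels do not say that replicates were separate animals, so the p-values rest on a spread between arrays that may be technical.

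Every value below is a log2 intensity from which the 75th percentile of the array was subtracted, and is called a level. A difference of levels between groups comes from limma with its standard error (SE), and a gene passed the test at a Benjamini-Hochberg adjusted p under 0.05 over all 16508 genes. Between 55.9% and 61.0% of the spots were well above background on an array, none was saturated, and 3 arrays per group limit the precision. The third CaCl2 plus IgG array stood apart from its group, with a mean correlation of 0.959 to its partners against at least 0.973 for the other arrays. The third sham array was alone on its slide, while the other 8 arrays shared a slide. Sham and CaCl2 arrays also lay in different rows of that shared slide, so slide row and group cannot be told apart there. The tissue label was met by smooth muscle markers, with 8 of 8 well above background in every group. Of 4 B cell markers 2 were higher with CaCl2, among them Cd79b by 2.39 ± 0.44 (limma adjusted p = 0.0050), and the summed signal of the 4, in multiples of the array's 75th percentile, was 0.739 to 0.922 in sham and 2.22 to 6.93 with CaCl2, which goes against a complete lack of B cell transcripts.

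Glycolysis splits glucose into pyruvate, which lactate dehydrogenase can turn into lactate for export from the cell. Many of its steps are served by several related enzymes, of which one form is typical of muscle and another of other cells. When oxygen is low, the prolyl hydroxylases that mark the HIF alpha subunits for degradation slow down. HIF then binds short hypoxia response elements and raises glucose carriers, glycolytic enzymes and genes for pH control, cell survival and collagen processing. In the aortic wall the contractile smooth muscle cells and any infiltrating leukocytes both use glycolysis, with different sets of isoforms.

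The bases before the start of 6 members are shown because these genes carry the contrasts that follow. Ldha, Pgk1 and Slc16a3 were higher with CaCl2 and hold the core of the hypoxia response element in its form ACGTG. Bnip3 holds ACGTG and did not pass the test. Ldhb was lower and Pfkfb4 higher without ACGTG. Both hold GCGTG, the other form of the core, at -126 and -117 bases from the start. Each run gives the 150 bases before an annotated start, 5′ to 3′ along the gene, in lower case, from RefSeq on GRCm38.p6. Capitals mark the core ACGTG on either strand, where a match on the other strand reads CACGT, and GCGTG is not marked. A core on both strands at 1 place spells the E-box CACGTG. For Ldha the first of its 2 starts is shown.
Ldha (chr7:46845654-46845803, + strand): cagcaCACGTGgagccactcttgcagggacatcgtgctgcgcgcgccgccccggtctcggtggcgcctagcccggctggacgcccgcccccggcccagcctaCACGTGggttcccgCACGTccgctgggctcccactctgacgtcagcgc
Pgk1 (chrX:106186950-106187099, + strand): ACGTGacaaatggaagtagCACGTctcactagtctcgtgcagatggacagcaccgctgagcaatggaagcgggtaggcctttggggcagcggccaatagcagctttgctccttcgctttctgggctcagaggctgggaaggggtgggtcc
Slc16a3 (chr11:120948917-120949066, + strand): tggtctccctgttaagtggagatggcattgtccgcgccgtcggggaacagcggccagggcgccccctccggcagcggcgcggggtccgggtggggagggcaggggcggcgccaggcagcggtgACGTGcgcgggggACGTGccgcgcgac
Bnip3 (chr7:138909507-138909656, - strand): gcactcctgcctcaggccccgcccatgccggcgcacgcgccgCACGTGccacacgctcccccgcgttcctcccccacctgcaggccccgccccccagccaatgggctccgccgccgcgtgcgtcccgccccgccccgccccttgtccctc
Ldhb (chr6:142507958-142508107, - strand): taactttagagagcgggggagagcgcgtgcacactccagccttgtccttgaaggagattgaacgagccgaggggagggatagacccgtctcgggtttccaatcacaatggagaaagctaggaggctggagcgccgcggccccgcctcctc
Pfkfb4 (chr9:108991752-108991901, + strand): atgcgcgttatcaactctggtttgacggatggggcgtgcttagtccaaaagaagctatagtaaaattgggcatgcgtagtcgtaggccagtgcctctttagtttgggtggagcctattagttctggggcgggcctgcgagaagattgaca

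The Ldha stretch holds 5 core matches, counted on both strands, at 3 places, and 2 of these places are E-boxes. Pgk1 and Slc16a3 hold 2 matches each, Bnip3 has 1 E-box, and Ldhb and Pfkfb4 have 0 matches of ACGTG in these bases. Windows from 250 bases before to 50 bases after a start were searched for 34 members with an entry, over 47 starts. Slc2a3, Epas1 and Ndrg1 were not among them. ACGTG occurred for 24 of 34 members (70.6%), against 27.4% of 12367 genes tested on the array and 21.8% of 27025 genes in the whole table. GCGTG, the other form of the core, occurred for 64.7% of members, 50.8% of genes tested and 35.2% of the table, and CACGTG, which contains ACGTG, for 17.6%, 10.8% and 8.1%. The members' windows were also richer in G and C, with a median of 62.3% against 59.3% for the genes tested. Many members are textbook HIF targets, so the share describes the list. ACGTG was in the window of 6 of 7 members higher with CaCl2, 2 of 3 members lower and 16 of 24 members that did not pass. A match is a run of letters and not a measured binding site.

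**Figure D1:**
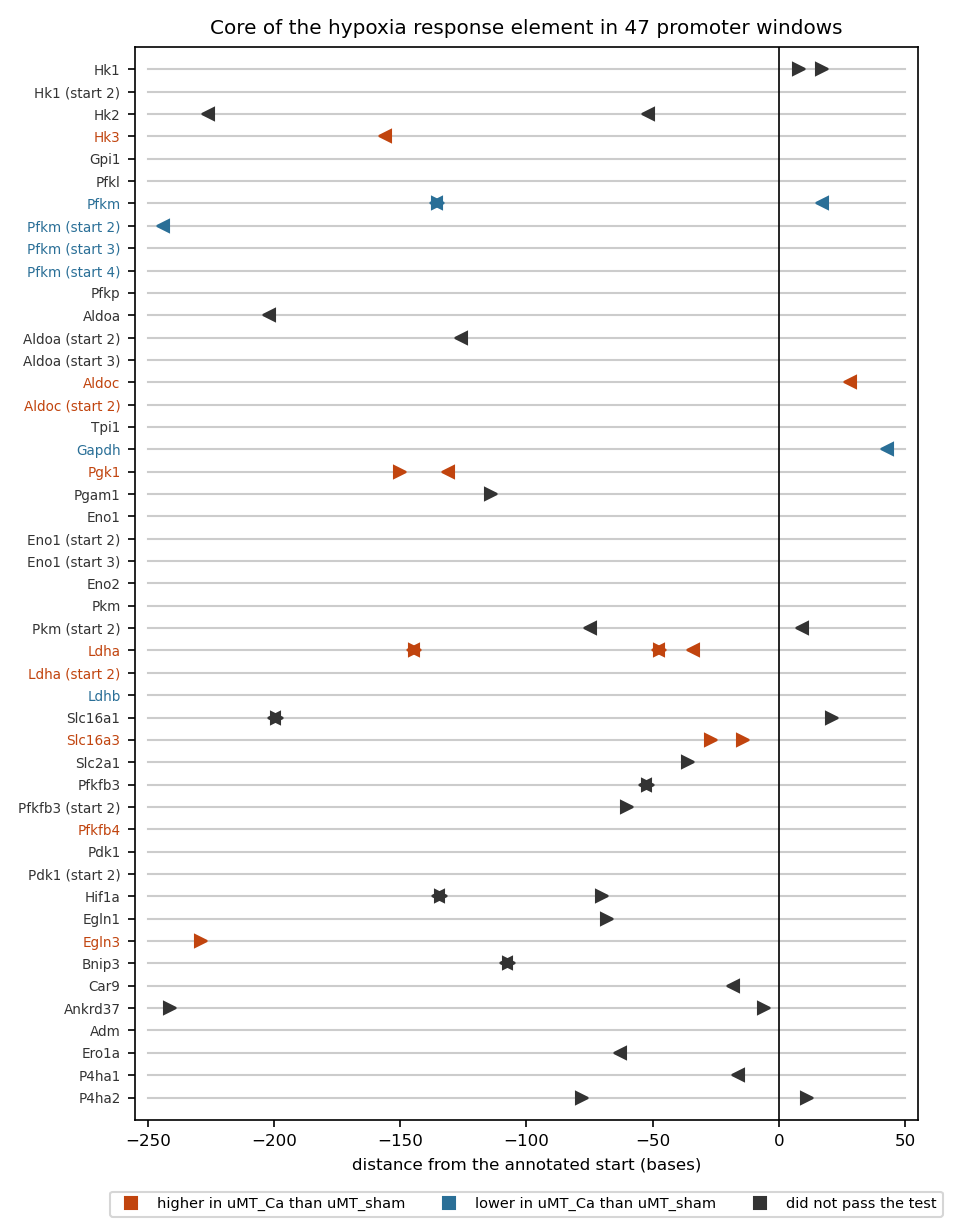
Positions of ACGTG in the 47 promoter windows of 34 members, in bases from the annotated start on the x axis, with 1 line per start. Right-pointing marks lie on the gene's strand, left-pointing marks on the other, a star is both at 1 place, and colours give the call in CaCl2 against sham. Ldha has marks at 3 places, Ldhb and Pfkfb4 have none, and genes that did not pass carry the core as well.

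The comparison of CaCl2 with sham asks what the aneurysm procedure changed in an aorta without mature B cells. Of the 37 members 7 were higher, 3 were lower and 27 did not pass, while median scaling gave 10 higher and 1 lower. The higher genes were Hk3, Egln3, Pfkfb4, Aldoc, Slc16a3, Ldha and Pgk1, and the lower ones Ldhb, Pfkm and Gapdh. Over all genes tested 36.4% passed, 17.4% higher and 19.0% lower, so the members' 27.0% was below the background, and calls in both directions were found among all genes too. The median difference was -0.01 over the members and -0.08 over all genes, and the median absolute difference was 0.38 and 0.47. Groups did not overlap in 10 members with CaCl2 higher and 9 with CaCl2 lower, where 24.6% and 31.9% of all genes did so. Without the third sham array 6 members passed, 4 higher and 2 lower, and with the slide row as a block the count was also 6, 4 higher and 2 lower. The third CaCl2 plus IgG array, though in neither group, entered the shared spread, and without it 13 passed, 8 higher and 5 lower. The direction of small differences depended on the scaling: with median scaling 15 members that had not passed, all below 0, turned to above 0, among them Hk2, Aldoa, Pfkp, Eno1, Pkm, Pfkfb3, Epas1 and Bnip3.

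The cell composition read from marker genes moved with the same groups. All 8 smooth muscle markers were lower with CaCl2, and their summed signal, in multiples of the array's 75th percentile, was 2588 to 2977 in sham and 803 to 1290 with CaCl2. Monocyte and macrophage markers rose for 9 of 10, from sums of 30.3 to 92.5 to sums of 255 to 288. Of 7 neutrophil markers 4 rose, yet their summed signal, carried mostly by Csf3r, which did not pass, was 216 to 280 in sham and 138 to 162 with CaCl2. Skeletal muscle markers, 5 of 10 measured, summed to 41.0 to 53.1 in sham and 7.45 to 15.9 with CaCl2, with 2 lower and 1 higher. Fibroblast markers were higher for 3 of 6, endothelial markers higher for 1 and lower for 1 of 6, and nerve markers higher for 3 of 4 measured. Brown fat markers were lower for 2 of 4 measured, and 0 of 4 white fat and 0 of 2 erythroid markers passed. Over all genes 36.4% passed, and the endothelial share of 33.3% was near that. The part of these cells in the glycolytic differences was not tested, and in whole tissue fewer cells of a type and less RNA per cell cannot be told apart.

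**Figure D2:**
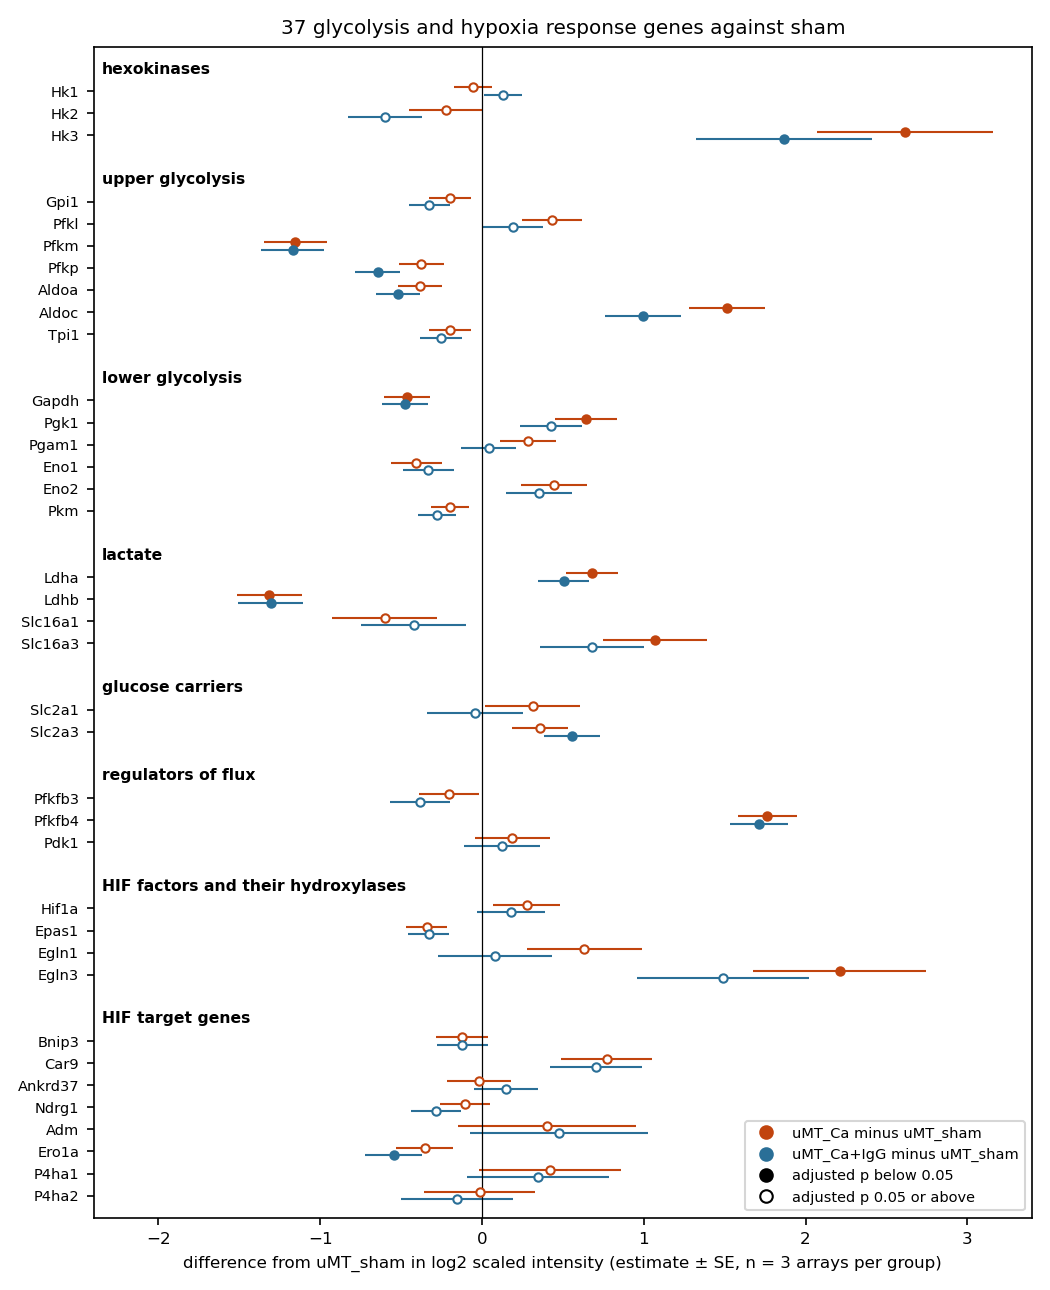
Differences of CaCl2 (red) and CaCl2 plus IgG (blue) from sham for the 37 members by role, on the x axis in log2 units, as estimate ± SE with 3 arrays per group. Filled points passed the adjusted p of 0.05. Hk3, at 2.61, and Ldhb, at -1.31, mark the ends for CaCl2, and none of the 8 HIF target genes has a filled point for CaCl2.

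Hexokinases phosphorylate glucose as it enters the cell. Hk3, the form found mainly in myeloid cells, had levels of -0.62, -0.30 and -2.19 in sham, 1.10, 1.26 and 2.37 with CaCl2, and 1.44, 0.53 and 0.51 in the IgG group. Each treated array was above each sham array, and the third sham array was the lowest. Hk3 was 6.12-fold higher with CaCl2 (log2 difference 2.61 ± 0.54 SE, limma adjusted p = 0.0080), and 2.04 without the third sham array (adjusted p = 0.0172). Its probe lies at chr13:55107900-55107959 in mm9, the build named in the array files. Hk2, the inducible hexokinase of muscle and a HIF target, had levels of -0.12, -0.09 and -0.26 in sham and -0.83, -0.36 and 0.04 with CaCl2, and the groups overlapped (difference -0.22, adjusted p = 0.470). Hk1, the housekeeping form, differed by -0.05 (95% interval -0.32 to 0.21), and its other 2 probes read up to 0.40.

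Among the enzymes from hexose phosphate to triose phosphate, 1 of 7 rose, 1 fell and 5 did not pass, where 36.4% of all genes passed. Aldoc, the aldolase typical of brain, had levels of -0.53, -0.45 and -0.77 in sham, 0.72, 0.66 and 1.41 with CaCl2, and 0.72, 0.18 and 0.32 in the IgG group. Both treated groups were above sham without overlap. The difference for CaCl2 was 1.51 ± 0.23 (2.86-fold, limma adjusted p = 0.0025), on a probe at chr11:78140198-78140257. Aldoa, the aldolase of muscle, stood at 7.49, 7.77 and 7.56 in sham and at 7.18, 7.22 and 7.27 with CaCl2, lower on each array but short of the threshold (difference -0.38, adjusted p = 0.0561).

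Pfkm, the muscle subunit of phosphofructokinase, had levels of 3.17, 3.19 and 3.08 in sham, 1.74, 2.33 and 1.90 with CaCl2, and 2.28, 1.88 and 1.76 in the IgG group. The sham arrays lay close together and above each treated array. Pfkm was 2.23-fold lower with CaCl2 (-1.16 ± 0.19, limma adjusted p = 0.0034), on a probe at chr15:97962713-97962772. With each array scaled to its median in place of the 75th percentile the difference was -0.68 (adjusted p = 0.131). Pfkl, the liver subunit, differed the other way, by 0.43, and missed the threshold (adjusted p = 0.0959), as did the platelet subunit Pfkp at -0.38 (adjusted p = 0.0647). Gpi1, the hexose phosphate isomerase, and Tpi1, the triose phosphate isomerase, differed by -0.20 each (adjusted p = 0.252 for both), and a second Tpi1 probe read 0.19.

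The lower steps, from glyceraldehyde phosphate to pyruvate, had 1 of 6 genes higher and 1 lower, where 36.4% of all genes passed. Gapdh, often used as a reference gene, had levels of 7.88, 8.06 and 8.28 in sham, 7.55, 7.51 and 7.78 with CaCl2, and 7.63, 7.60 and 7.56 in the IgG group. Its sham arrays were the highest, by a small margin. Gapdh was 1.38-fold lower with CaCl2 (-0.46 ± 0.14, limma adjusted p = 0.0357), but the direction depended on the scaling and was 0.01 (adjusted p = 0.978) with median scaling. It also missed the threshold without the second or the third sham array (-0.47 and -0.36), the first or the second CaCl2 array (-0.43 and -0.41) or the second CaCl2 plus IgG array (-0.46), at adjusted p of 0.0551 to 0.111, and with the slide row as a block (-0.58, adjusted p = 0.0535). All 8 Gapdh probes were lower, by -0.35 to -0.64, although the file places the brightest at chr7:59003199-59003257 while the gene is on chromosome 6.

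Pgk1, the first enzyme to return ATP, had levels of 3.96, 3.89 and 3.57 in sham, 4.41, 4.24 and 4.70 with CaCl2, and 4.22, 4.50 and 3.98 in the IgG group. The CaCl2 arrays were above sham without overlap, and the difference was 0.64 ± 0.19 (1.56-fold, limma adjusted p = 0.0320). Pgk1 missed the threshold without the second or the third sham array (0.69 and 0.52) or the first or the third CaCl2 array (0.66 and 0.52). The adjusted p there was 0.0632 to 0.103. With the slide row as a block it missed the threshold too (0.77, adjusted p = 0.0619), as it did with the replicate number as a block. The single Pgk1 probe is placed at chr3:57906830-57906894 in the file, while the gene is on chromosome X. Pgam1, Eno1, Eno2 and Pkm, which carry the remaining steps, differed by 0.28, -0.41, 0.44 and -0.20 and did not pass (adjusted p = 0.225, 0.0718, 0.121 and 0.220).

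Of lactate dehydrogenase and the lactate carriers, 4 genes, 2 were higher and 1 lower, where 36.4% of all genes passed. Ldha, the subunit that favours lactate formation and a textbook HIF target, had levels of 6.05, 6.16 and 5.98 in sham, 6.74, 6.49 and 6.98 with CaCl2, and 6.59, 6.72 and 6.39 in the IgG group. No treated array fell within the sham range. Ldha was 1.60-fold higher with CaCl2 (0.68 ± 0.16, limma adjusted p = 0.0135) on a probe at chr7:54110937-54110996, and its 3 probes gave 0.47 to 0.86. With the slide row as a block it missed the threshold (0.71, adjusted p = 0.0530). Ldhb, the heart-type subunit, had levels of 4.01, 4.07 and 3.99 in sham, 2.49, 3.16 and 2.49 with CaCl2, and 2.87, 2.49 and 2.80 in the IgG group. The sham arrays lay close together and exceeded each treated array. Ldhb was 2.49-fold lower (-1.31 ± 0.20, limma adjusted p = 0.0024) on a probe at chr6:142438770-142438829.

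Slc16a3, the carrier that exports lactate from glycolytic cells, had levels of 0.65, 1.06 and 1.23 in sham, 1.68, 1.67 and 2.80 with CaCl2, and 1.82, 1.81 and 1.36 in the IgG group. The third CaCl2 array was highest. The difference for CaCl2 was 1.07 ± 0.32 (2.10-fold, limma adjusted p = 0.0322), on a probe at chr11:120820023-120820082, and 0.69 (adjusted p = 0.0606) without the third CaCl2 array. Without the first, the second or the third sham array it was 0.91, 1.11 and 1.19 (adjusted p = 0.0983, 0.0694 and 0.0541), and with the slide row as a block 0.87 (adjusted p = 0.161). Slc16a1, the more widespread monocarboxylate carrier, differed by -0.60 (adjusted p = 0.172). Its levels were low, between -4.34 and -2.60 over the 9 arrays.

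Of the 2 glucose carriers among the members, Slc2a1 and Slc2a3, 0 passed with CaCl2, where 36.4% of all genes passed. Other glucose carriers, given below, did pass. Slc2a1, the basal carrier and a standard HIF target, had levels of 1.22, 2.18 and 1.94 in sham, 1.74, 2.41 and 2.13 with CaCl2, and 2.03, 1.81 and 1.37 in the IgG group. The 3 groups overlapped, and the 95% interval of the CaCl2 difference ran from -0.36 to 0.99. Slc2a3, a high-affinity carrier of neurons and leukocytes, differed by 0.36 (adjusted p = 0.135).

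The regulators of flux set the brake and the throttle of the pathway. Pfkfb4, an enzyme that makes and removes the activator of phosphofructokinase, had levels of 0.55, 0.43 and -0.03 in sham, 1.99, 1.94 and 2.30 with CaCl2, and 2.08, 2.09 and 1.91 in the IgG group. The treated arrays lay within a narrow band far above sham. Pfkfb4 was 3.40-fold higher with CaCl2 (1.76 ± 0.18, limma adjusted p = 0.00063), on a probe at chr9:108934652-108934711, and it passed under each of 19 other settings. Pfkfb3, its relative with the strongest activating side, had levels of 2.86, 2.93 and 2.64 in sham and 2.65, 2.29 and 2.89 with CaCl2, which overlapped (difference -0.20, adjusted p = 0.412). A second Pfkfb3 probe read -1.23. Pdk1, a kinase that inhibits pyruvate dehydrogenase and is induced in hypoxia, differed by 0.19 (adjusted p = 0.552).

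**Figure D3:**
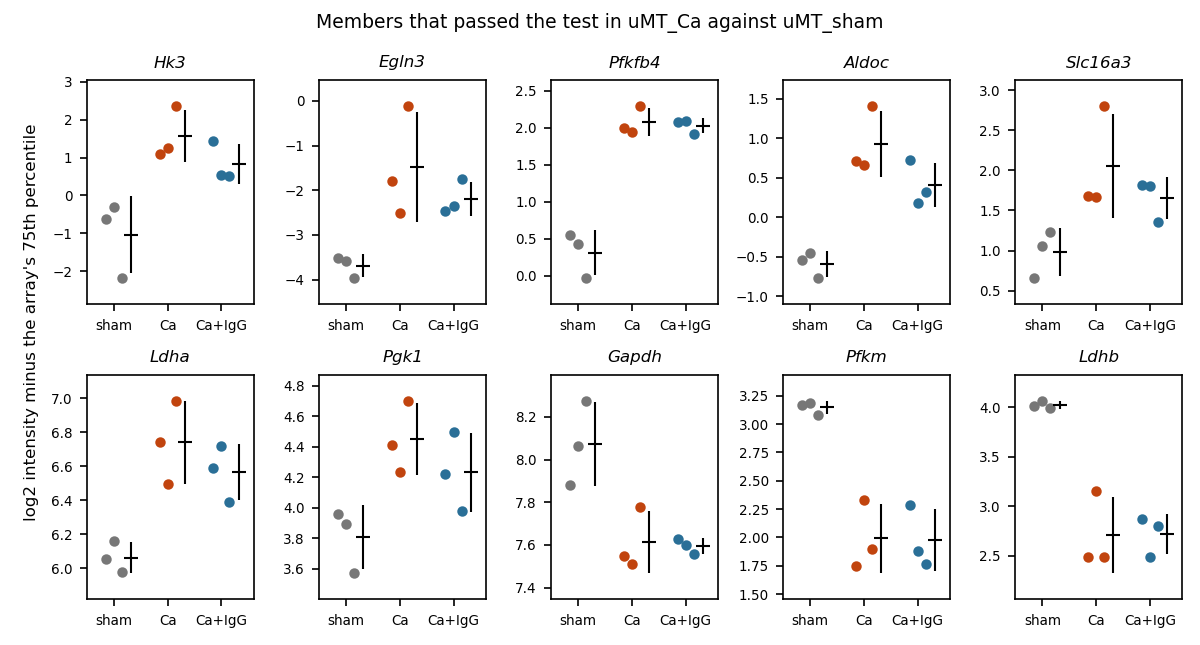
Levels of the 10 members that passed in CaCl2 against sham, with 1 point per array and the mean ± SD beside each group of 3, on the y axis in log2 intensity minus the array's 75th percentile. The scale differs between panels. Sham arrays do not overlap the CaCl2 arrays in any panel, and Hk3 and Egln3 have the widest spread.

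HIF itself is controlled mainly at the protein level, which these arrays do not measure. Hif1a, the alpha subunit of HIF-1, had levels of 1.20, 1.18 and 0.86 in sham, 1.40, 1.06 and 1.61 with CaCl2, and 1.50, 1.37 and 0.92 in the IgG group. The groups overlapped and the difference of 0.28 did not pass (limma adjusted p = 0.324). A second, dimmer Hif1a probe was not well above background on any sham array, so no difference is given for it. The mean of both probes passed (adjusted p = 0.0078) and rests on that dim probe. Epas1, the alpha subunit of HIF-2 and abundant in vessels, had levels of 6.26, 6.29 and 6.15 in sham and 5.93, 5.95 and 5.80 with CaCl2. These did not overlap, at a difference of -0.34 (adjusted p = 0.0658), and the other 2 Epas1 probes were lower by up to -0.90.

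Of the hydroxylases, Egln3, the one most induced by HIF in feedback, had levels of -3.51, -3.58 and -3.97 in sham, -1.79, -2.51 and -0.11 with CaCl2, and -2.47, -2.36 and -1.76 in the IgG group. Each treated array was above sham, and the third CaCl2 array was far above the other two. Egln3 was 4.63-fold higher with CaCl2 (2.21 ± 0.53, limma adjusted p = 0.0145). Its sham levels were near the dimmest probes well above background on those arrays, at -4.29, -4.19 and -4.35. A second Egln3 probe gave 1.52, but it was well above background on only 2 of 3 sham arrays. The probe used lies at chr12:55280953-55281012. Without the third CaCl2 array the difference was 1.53 (adjusted p = 0.0135), without the third sham array 2.07 (adjusted p = 0.0511), and with another background correction, normexp, 0.97 (adjusted p = 0.0732). Egln1, the main oxygen sensor, differed by 0.63 (adjusted p = 0.190).

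None of the 8 members listed as HIF target genes passed in CaCl2 against sham, where 36.4% of all genes passed. Their median difference was -0.02. This covers the listed members only: of 29 further HIF targets, given below, 12 passed (41.4%), with a median of 0.27. Among the 8 members Car9, a carbonic anhydrase of hypoxic cell surfaces, came nearest. Its levels were -2.79, -1.88 and -2.19 in sham, -1.95, -1.44 and -1.15 with CaCl2, and -1.65, -1.78 and -1.30 in the IgG group. One sham array lay within the CaCl2 range, and the difference of 0.77 had an adjusted p of 0.0631 in limma, which was 0.0126 with median scaling, 0.0250 with quantile normalization, 0.0249 in the authors' series table, 0.0482 without the second sham array and 0.0448 without the first CaCl2 array. Bnip3, a mitochondrial protein of hypoxic mitophagy, had levels of 3.56, 3.73 and 3.40 in sham and 3.66, 3.49 and 3.18 with CaCl2, overlapping, with a 95% interval of -0.49 to 0.24 for the difference. Ankrd37, a short hypoxia-induced gene, differed by -0.02 (95% interval -0.47 to 0.43), and Ndrg1, a stress-responsive gene, by -0.10 (-0.46 to 0.25). Adm, the vasodilator adrenomedullin, spread from -0.06 to 2.39 within the CaCl2 group, and its difference of 0.40 had an interval of -0.86 to 1.66.

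The remaining target genes act in protein folding and collagen processing. Ero1a, an oxidase of the endoplasmic reticulum, differed by -0.35 (adjusted p = 0.146). P4ha1 and P4ha2, the catalytic subunits of the collagen prolyl hydroxylase, differed by 0.42 and -0.01 (adjusted p = 0.473 and 0.978). P4ha1 read 2.76, 1.83 and 1.54 on the CaCl2 arrays and 1.56, 2.86 and 1.49 with IgG, and P4ha2 read 4.14, 3.09 and 3.42, and 3.37, 3.96 and 2.90. The first CaCl2 array and the second CaCl2 plus IgG array were thus the highest of their groups for both subunits.

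**Figure D4:**
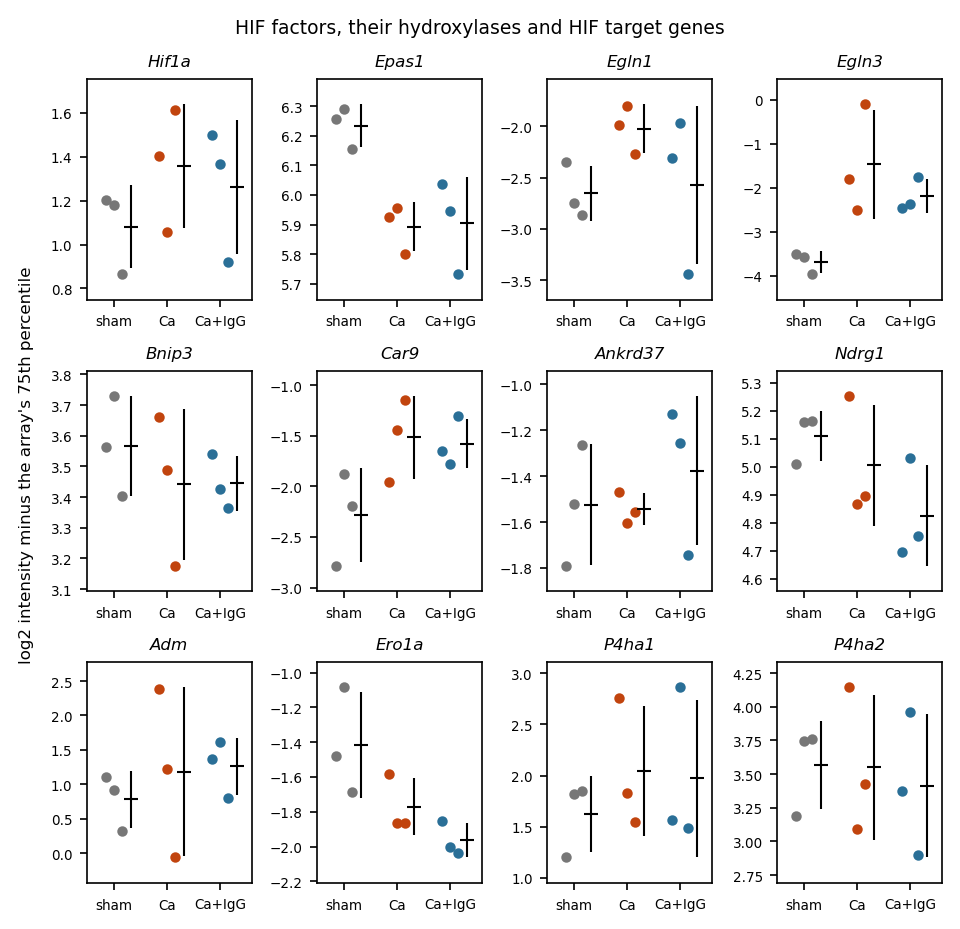
Levels of the HIF alpha subunits, prolyl hydroxylases and 8 HIF target genes, with 1 point per array and the mean ± SD beside each group of 3, on the y axis in log2 intensity minus the array's 75th percentile. The scale differs between panels. Egln3 separates sham from both treated groups, while Bnip3, Ankrd37, Adm, P4ha1 and P4ha2 overlap in all groups.

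Since the direction of several members depended on how arrays were scaled, related genes were also subtracted from each other within an array, which cancels any scaling of whole arrays. The pairs were chosen with the values known and carry no test. Ldha minus Ldhb, set to 0 at the sham mean, was 0.00, 0.05 and -0.05 in sham, 2.22, 1.30 and 2.46 with CaCl2, and 1.68, 2.19 and 1.55 in the IgG group. The ratio of the 2 subunits thus shifted 3.98-fold toward Ldha with CaCl2 (mean 1.99 ± 0.61 SD, n = 3). Aldoc minus Aldoa was 0.17, -0.03 and -0.14 in sham, 1.73, 1.63 and 2.33 with CaCl2, and 1.65, 1.32 and 1.56 with IgG, a 3.72-fold shift with CaCl2. Pfkl minus Pfkm was 0.27, -0.32 and 0.05 in sham, 1.72, 1.26 and 1.79 with CaCl2, and 0.95, 1.72 and 1.42 with IgG, a 3.01-fold shift. On 6 of 6 treated arrays Ldhb lost against Ldha, Aldoa against Aldoc and Pfkm against Pfkl.

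Further pairs differed in size and spread. Pfkfb4 minus Pfkfb3 shifted by 1.97 ± 0.16 with CaCl2 and 2.10 ± 0.13 with CaCl2 plus IgG, with little spread between arrays. Slc16a3 minus Slc16a1 shifted by 1.67 ± 0.60, Eno2 minus Eno1 by 0.85 ± 0.47 and Hk3 minus Hk1 by 2.67 ± 0.71 with CaCl2, and none of these overlapped sham. Hif1a minus Epas1 shifted by 0.62 ± 0.36. Slc2a3 minus Slc2a1 overlapped sham, at 0.05 ± 0.30 with CaCl2 against a sham range of -0.50 to 0.79, and so did Hk1 minus Hk2, at 0.17 ± 0.46.

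**Figure D5:**
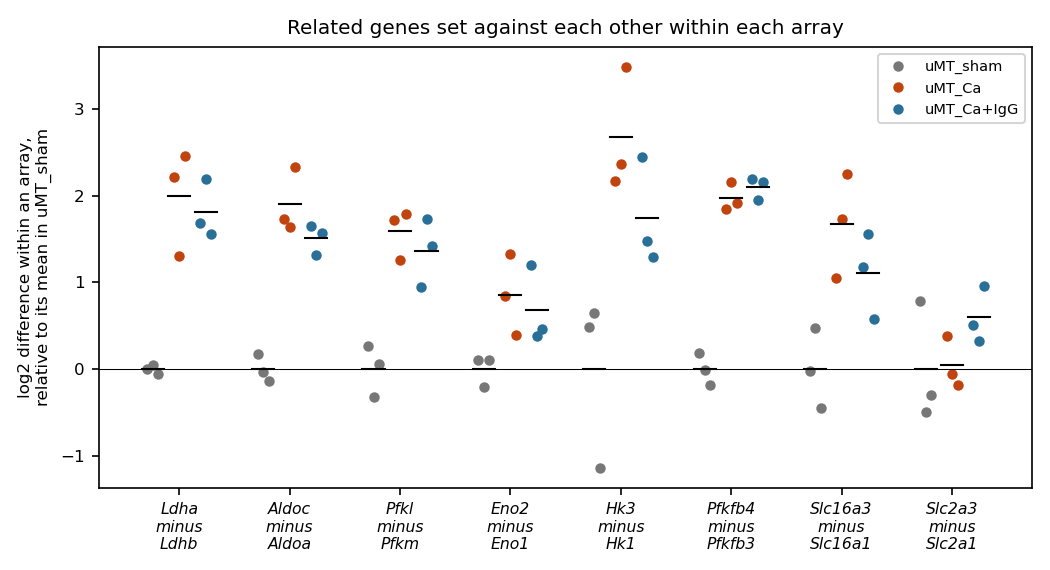
Within-array differences between related genes, on the y axis in log2 units relative to the sham mean, with 1 point per array and a bar at the mean of each group of 3. Ldha over Ldhb lies between 1.30 and 2.46 with CaCl2 and between 1.55 and 2.19 with CaCl2 plus IgG, and Slc2a3 over Slc2a1 overlaps sham.

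Setting CaCl2 plus IgG against CaCl2 alone asks whether injected IgG altered these genes. In limma 0 of 37 members passed, and 0 of 16508 genes (0%) did. At an unadjusted p under 0.05 the counts were 0 members and 242 genes (1.47%). The members' differences ran from -0.75 for Hk3 to 0.19 for Slc2a3, with a median of -0.10, and 28 of 37 were negative. Over all genes the median was -0.02, and it moved to -0.25 with median scaling, so the sign of small differences depended on the scaling. The share of all genes below 0 was not counted. Groups did not overlap for 1 member with IgG higher, Hk1, where 2.62% of all genes did so, and for 2 with IgG lower, Pfkp and Pgam1, where 2.40% did. Intervals were narrow for some genes that CaCl2 had moved: the 95% interval was -0.47 to 0.36 for Pfkfb4, -0.45 to 0.47 for Ldhb and -0.46 to 0.43 for Pfkm. They were wide for Hk3, from -1.99 to 0.49, and for Egln3, from -1.94 to 0.50. A decrease of several fold with IgG was thus not excluded for these 2 genes. Without the third CaCl2 plus IgG array, which stood apart, 0 members passed as well.

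CaCl2 plus IgG was then set against sham, a comparison that shares its sham arrays with the first. Of 37 members 5 were higher and 6 lower, 29.7% in all against 28.9% of all genes, of which 14.7% were higher and 14.2% lower. Called in both comparisons were Aldoc, Gapdh, Hk3, Ldha, Ldhb, Pfkfb4 and Pfkm. Against sham with IgG, Ldhb and Pfkfb4 passed under all 19 other settings, Pfkm under 18, Aldoc under 17, Hk3 under 12, and Ldha and Gapdh under 7 each. Ldha missed the threshold with the slide row as a block (adjusted p = 0.0691) and without any 1 of the sham arrays (adjusted p = 0.0808 to 0.127). The values with IgG and without it were 1.71 and 1.76 for Pfkfb4, 1.87 and 2.61 for Hk3, 0.99 and 1.51 for Aldoc, 0.50 and 0.68 for Ldha, -1.31 and -1.31 for Ldhb, -1.17 and -1.16 for Pfkm, and -0.48 and -0.46 for Gapdh. Egln3, Slc16a3 and Pgk1 missed the threshold with IgG, at 1.49, 0.68 and 0.42 (limma adjusted p = 0.0686, 0.144 and 0.131). The direct comparison of the 2 treated groups passed for none of them.

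Called with CaCl2 plus IgG and not with CaCl2 alone were Slc2a3, higher by 0.55 (limma adjusted p = 0.0445), and 3 lower genes. These were Pfkp at -0.64 (adjusted p = 0.0109), Aldoa at -0.52 (adjusted p = 0.0231) and Ero1a at -0.55 (adjusted p = 0.0487). Of 19 other settings Pfkp passed under 18, Aldoa under 12, Slc2a3 under 7 and Ero1a under 4. Slc2a3 and Ero1a missed the threshold with the slide row as a block (adjusted p = 0.0659 and 0.0677), and all 4 missed it with median scaling. Slc2a3 had levels of -0.51, -0.83 and -0.87 in sham and 0.02, -0.39 and -0.19 with IgG, without overlap. Pfkp had levels of 2.43, 2.56 and 2.70 in sham and 1.91, 1.97 and 1.88 with IgG, close together and all below sham. Without the third CaCl2 plus IgG array 8 members passed, 4 higher and 4 lower, and Gapdh, Slc2a3 and Ero1a no longer did. Without the second sham array 6 passed, without the third sham array 5, and 5 again without the first or the second CaCl2 plus IgG array. In the slide row that holds 2 sham and 2 IgG arrays the difference was 1.52 for Pfkfb4, -1.40 for Ldhb and -1.36 for Pfkm.

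Further genes of glucose metabolism outside the 37 were read from 5 lists, 50 of 60 measured. With CaCl2 6 rose and 13 fell, 38.0% called against 36.4% of all genes, of which 17.4% were higher and 19.0% lower, so the total was near the background. The pentose phosphate route had 3 of 7 higher and 0 lower. Tkt, the transketolase, rose by 4.25 ± 0.65 (limma adjusted p = 0.0023), Pgd, which yields NADPH, by 0.99, and Taldo1, the transaldolase, by 0.44. Pyruvate entry into the mitochondria had 0 of 13 higher and 4 lower, with Pdp2, a phosphatase that activates pyruvate dehydrogenase, at -1.85 ± 0.24. The kinase Pdk3 was at -0.52 and the pyruvate carrier subunit Mpc2 at -0.48. Median scaling moved the median of all genes from -0.08 to 0.39, a shift near the size of the Pdk3 and Mpc2 differences. Among the glycogen genes Pygm, the muscle glycogen phosphorylase, fell by 1.45 on the log2 scale and Pygl, the liver form, rose by 1.08. Gbe1, the glycogen branching enzyme, was lower at -0.70, and in all 1 of 12 rose and 4 fell. Of 9 further glycolytic isoforms and regulators 0 rose and 3 fell, among them Pgam2, the muscle mutase, at -1.29 and Adpgk, an ADP-dependent sugar kinase, at -0.66. Eno3, the muscle enolase, named after its value was seen, differed by -0.19 (adjusted p = 0.368).

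Among 9 further glucose and lactate carriers and their partners, 2 rose and 2 fell. Slc2a6 rose by 3.40 ± 0.39 (limma adjusted p = 0.00089) and Emb, a partner protein of lactate carriers, by 2.10, while Slc2a4, the insulin-responsive carrier of muscle and fat, was lower at -1.36 and Slc16a7 at -1.12. The genes of the HIF system and further HIF targets, 39 of 41 measured, had 12 higher and 5 lower, 43.6% called against 36.4% of all genes. Of 10 further genes of the HIF system 3 rose and 2 fell. Arnt, the beta subunit that pairs with both HIF alpha proteins, rose by 2.09 ± 0.42 and Hif1an, which blocks HIF activity by hydroxylation, by 0.90. Arnt2 passed but was not well above background on any sham array, and no fold is given. Hif3a, an alpha subunit that can oppose the others, was lower at -1.78 and Cited2, a HIF-induced competitor for its coactivator, at -0.45, though the sign of so small a difference turns with median scaling.

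Among 29 further HIF targets 9 rose and 3 fell with CaCl2, 41.4% called against 36.4% of all genes, with a median of 0.27. The largest increases measured on both sides were those of Hmox1, the inducible haem oxygenase, by 4.41 ± 0.72 (limma adjusted p = 0.0031), and Cxcr4, a chemokine receptor of leukocytes, by 3.25 ± 0.42. Car12, a carbonic anhydrase that was not well above background in sham, was at least 2.32-fold higher (means of -6.34 in sham and -3.06 with CaCl2, adjusted p = 0.0145). Lower were Pgf, the placental growth factor, at -1.54, Stc2 at -0.83 and Higd1a, a hypoxia-induced mitochondrial protein, at -0.68. Vegfa, the angiogenic factor most often read as a HIF target, differed by 0.25 (adjusted p = 0.606); it was named here after its value was seen. In CaCl2 plus IgG against CaCl2, 0 of the 89 genes of all these lists passed. Against sham 15 were higher and 19 lower with IgG, 38.2% called against 28.9% of all genes. Of all genes 14.7% were higher and 14.2% lower there.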

How the data were processed

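The 9 abdominal aorta samples of uMT mice were measured on 1-colour Agilent arrays. They were grouped by the sample titles into sham, CaCl2 and CaCl2 plus IgG, 3 each. The authors' scanner output gives each spot a linear intensity, background-subtracted in Feature Extraction 10.7.1.1, per the file headers; the submitters' processing notes name version 9.5.1.1. The authors' deposited series table holds intensity values too, with steps not given in the sources used here. All 9 of its columns have a median of 29.7, and it served as an alternative. The labels name a Promega and a Qiagen purification kit, and which was used is not settled. Every value column was mapped to a sample.

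The deposited intensity was taken to log2, the 75th percentile of non-control spots was subtracted per array, outlier spots were left out and spots of a probe averaged. Probes had to be well above background throughout at least 1 group, which left 32166 of 55681, and each gene was read from its brightest kept probe. Symbols came from RefSeq accessions (27235 probes), symbols (3581), synonyms (565) or the file alone (1598), and 22702 probes had none. The file and table give no exon or UTR annotation on mm9. limma 3.58.1 in R 4.3.3 (lmFit, eBayes) fitted the 3 groups together, with 6 residual degrees of freedom, and adjusted p-values over 16508 genes by Benjamini-Hochberg. The fit was tested on simulated data. Alternatives changed the scaling, background, filter, probe rule, blocks and arrays used.

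Replicate numbers recur in all groups, but deviations of same-numbered arrays from their group means correlated between -0.20 and 0.23, so they were not taken to pair the samples. The text names each member that passed in CaCl2 against sham, gives arrays for the largest per role, opposed isoforms and central genes, and up to 3 called genes per direction of each further list, of which some are not reported here. The members, lists and rule were chosen with earlier results of these data known.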

Additional observations from a re-analysis of the deposited data

How the results depend on the processing

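Among the members that passed in CaCl2 against sham, Hk3, Aldoc, Ldhb and Pfkfb4 passed under all 19 other settings, Ldha and Pfkm under 18, Egln3 under 17, Slc16a3 under 14, Pgk1 under 13 and Gapdh under 8. The count of 10 members (7 higher, 3 lower) became 6 with the slide row as a block and ranged from 6 to 13 as single arrays were left out. Scaling to the array median moved the median of all genes from -0.08 to 0.39, called 10 members higher and 1 lower, and split the calls over all genes 3656 higher to 1081 lower against 2865 to 3139. There Gapdh turned to 0.0111; the shift is the offset between the scalings. Averaging a gene's probes called 14, adding Hif1a, through a probe not above background in sham, Epas1, Pfkp and Pfkfb3.

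For CaCl2 plus IgG against sham, 11 members became 5 with median scaling (4 higher, 1 lower), 6 without a filter, which tests 23853 genes, and 7 with only the 2 groups compared; quantile normalization and the series table each called 7 higher and 3 lower. Single arrays left out gave 5 to 13. The replicate block gave 10 members in CaCl2 against sham, 7 in CaCl2 plus IgG against sham and 0 between the treated groups; with it Pgk1 missed the threshold for CaCl2 (adjusted p = 0.0571) and Car9 passed (0.0370). Between the treated groups 0 members passed under every setting run. The cause of the other changes was not tested. A block on scan time was not run, since scans split as the slides did; leaving out the third sham array stands for using only the slide with 8 arrays. Values within 1 slide row were added after seeing the data.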
